A study of Mus musculus with 2 samples.

Results

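The miRNA hairpins described here lie inside the Hox clusters of the mouse, and their levels were measured in the developing face. They are Mir196b in the Hoxa cluster, Mir10a and Mir196a-1 in Hoxb, Mir615 and Mir196a-2 in Hoxc, and Mir10b in Hoxd. They were chosen by genomic position and found by symbol, and they are 6 of the 1973 miRNA genes in the tables. The series is a microRNA sequencing profile of embryonic facial prominences from B6NCrl mice at embryonic day 10.5, with small RNA inserts below 30 nt. It has 1 group of 2 biological replicates, both of mixed sex: replicate 2 pooled the prominences of 51 embryos and replicate 1 those of 69 embryos. No other tissue, stage or treatment was available for comparison, so the results are the levels of these genes, their order, and how far the 2 pools differed.

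Hox genes encode transcription factors that give cells their position along the head to tail axis. Within each cluster they are arranged in the order of the body regions in which they act, and the miRNAs embedded among them are generally expressed in similar domains. The mesenchyme of the face comes from cranial neural crest, and the crest that fills the frontonasal and first arch prominences is known for lacking Hox expression, whereas second arch crest, the hindbrain and the trunk express Hox genes. miR-10 sits near the Hox genes of the hindbrain and neck, and miR-196 near those of the trunk and tail. Hox mRNAs were not measured in these libraries, so whether the tissue was free of Hox expression was not tested. In pooled tissue, fewer cells of a type and less RNA per cell cannot be told apart.

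The mature sequences show which of these genes can be told apart by their reads. Capitals mark the seed (bases 2 to 8), the stretch that pairs with target mRNAs, and all sequences are from RefSeq on GRCm38.p6, where all 6 genes were matched. The 5p arms define the miR-10 and miR-196 families, and both arms are given for miR-615, which belongs to neither.
miR-10a-5p: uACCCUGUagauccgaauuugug
miR-10b-5p: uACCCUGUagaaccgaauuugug
miR-196a-5p: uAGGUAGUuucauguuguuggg
miR-196b-5p: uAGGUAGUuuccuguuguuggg
miR-615-5p: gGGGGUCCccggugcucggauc
miR-615-3p: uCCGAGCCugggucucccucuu
miR-99a-5p: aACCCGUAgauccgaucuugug
miR-100-5p: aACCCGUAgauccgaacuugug
miR-10a-5p and miR-10b-5p shared their seed with each other and with no other gene of the sequence table. They matched at 22 of 23 positions, with the difference U12A (positions counted from the 5′ end, miR-10a first). miR-196a-5p and miR-196b-5p likewise formed a seed group of their own and differed by A12C over 22 bases. Mir196a-1 and Mir196a-2 encode the same miR-196a-5p, and the longest stretch shared by their hairpins was 22 bases, the whole mature arm. Reads of that arm alone fit both loci, and reads that mapped to several places were not counted for any gene, so the levels of Mir196a-1 and Mir196a-2 are lower limits. Between the Mir10a and Mir10b hairpins the longest shared stretch was 15 bases. miR-99a and miR-100, relatives of miR-10 outside the Hox clusters, are shown for comparison: they carry another seed but share stretches of 10 bases (miR-99a) and 11 bases (miR-100) with miR-10a-5p. Whether sequencing errors at position 12 moved reads between Mir10a and Mir10b, or moved miR-196a-5p reads to Mir196b, was not tested.

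Ordered by cluster and from the anterior end, the hairpins took these places in GENCODE M21 on GRCm38, the mm10 build of the files. Mir196b (ENSMUSG00000065443.1, chromosome 6, 52230081 to 52230165, minus strand) lay at Hoxa9, within an exon of non-coding Hoxa9 transcripts. Mir10a (ENSMUSG00000065519.1, chromosome 11, 96317165 to 96317274, plus strand) was intergenic, 992 bases upstream of the nearest Hoxb4 exon and 11043 bases past Hoxb5. Mir196a-1 (ENSMUSG00000065546.1, chromosome 11, 96265164 to 96265265, plus strand) was also intergenic, 6191 bases upstream of Hoxb9 in the long gap that follows Hoxb13. Mir615 (ENSMUSG00000076010.1, chromosome 15, 103014910 to 103015001, plus strand) lay in an intron of Hoxc5. Mir196a-2 (ENSMUSG00000065488.1, chromosome 15, 102973350 to 102973434, plus strand) lay between Hoxc10 and Hoxc9, in an intron of a long non-coding Hoxc5 transcript. Mir10b (ENSMUSG00000065500.2, chromosome 2, 74726070 to 74726137, plus strand) lay in introns of Hoxd4 and Hoxd3 transcripts. Of the 1894 genes of the tables that had coordinates in this annotation, no other fell between the outermost Hox genes of any cluster. The remaining 79 could not be placed. No opposite-strand gene overlapped a member.

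**Figure D1:**
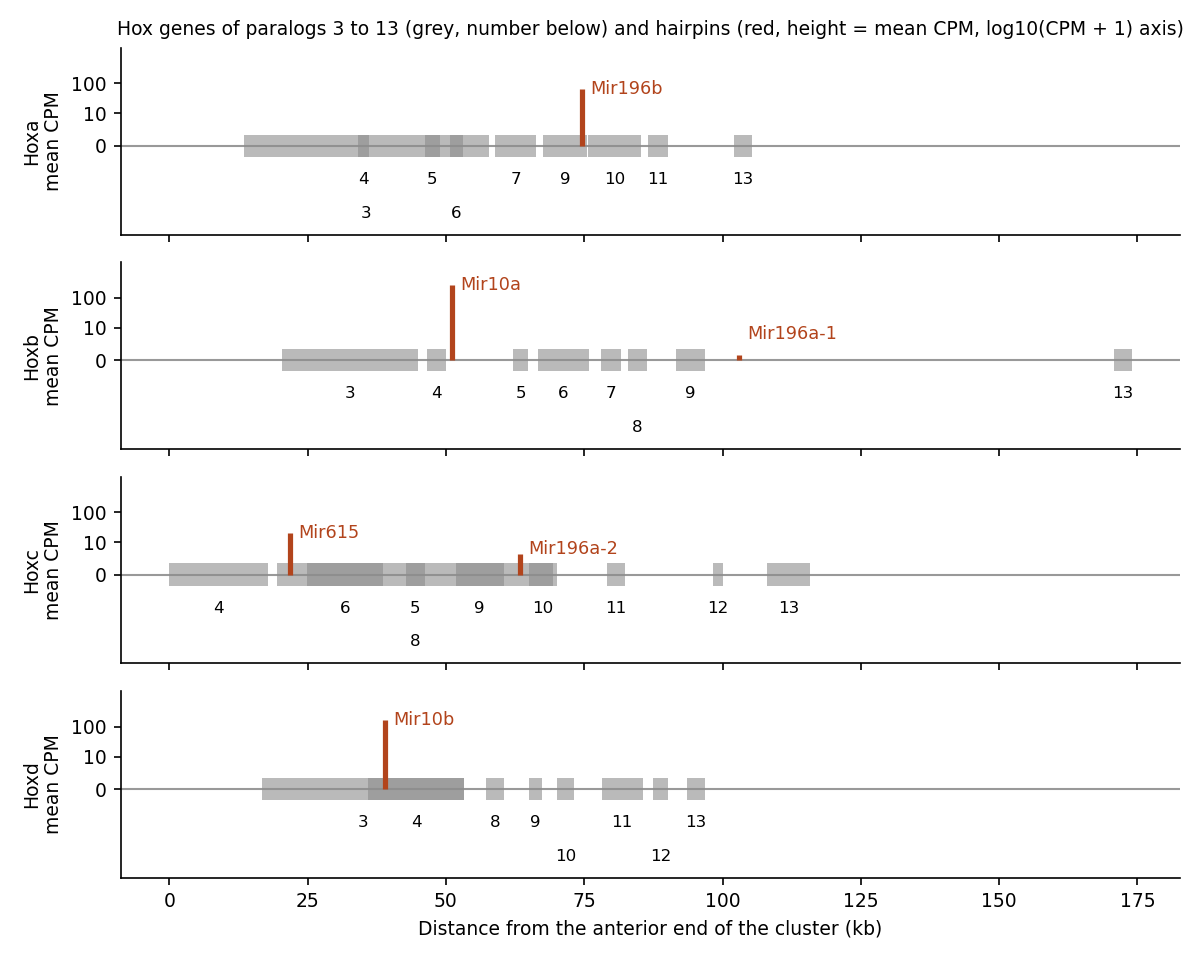
Map of the Hox clusters with the distance in kb from the anterior end of each cluster on the x axis, Hox genes of paralogs 3 to 13 as grey boxes (annotated span, numbers give the paralog) and hairpins as red bars whose height is the mean CPM of the 2 libraries on a log10(CPM + 1) axis. Mir10a (251 CPM) and Mir10b (164 CPM) stand at paralog 4, and the miR-196 hairpins toward the posterior side are lower.

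All 6 hairpins had reads, at low to moderate levels. Levels are CPM, the count on the gene's strand relative to the sum of gene-strand counts over all miRNA genes of that library. Together the 6 genes had 633 CPM in replicate 2 and 378 CPM in replicate 1, 506 ± 181 CPM on average (SD, n = 2). These were 0.0633% of all gene counts in replicate 2 (exact Clopper-Pearson 95% interval 0.0607% to 0.0660%) and 0.0378% in replicate 1 (0.0356% to 0.0401%). The sum was thus a small part of a profile whose highest gene had 613 times the mean level of Mir10a. No read was counted on the strand opposite any member. Intervals cover counting error only, since several reads may be PCR copies of the same molecule.

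The miR-10 genes carried most of the reads. Mir10a had 1219 counts in replicate 2 and 444 in replicate 1, which is 347 CPM (exact Poisson 95% interval 327 to 367) in replicate 2 and 156 CPM (141 to 171) in replicate 1. Mir10b had 627 counts in replicate 2 and 425 in replicate 1, or 178 CPM (165 to 193) in replicate 2 and 149 CPM (135 to 164) in replicate 1. In zebrafish, miR-10 is known to repress Hox genes expressed anterior to its own domain. By mean level Mir10a ranked 162 and Mir10b 189 among the 1973 genes, near the middle of the 376 genes with at least 10 counts in each library, whose median was 164 CPM. Mir10a was 1.94 times Mir10b in replicate 2 but only 1.04 times in replicate 1, and in replicate 1 their counting intervals overlapped. Their ranges over the libraries overlapped. Divided by annotated hairpin length the order turned, with 228 mean CPM per 100 bases for Mir10a and 241 for Mir10b. Counts of inserts below 30 nt need not scale with that length, so this turn does not bear on which gene was higher.

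The trunk-associated miR-196 genes were lower. Mir196b had 282 counts in replicate 2 and 146 in replicate 1, or 80.2 CPM (71.1 to 90.1) in replicate 2 and 51.2 CPM (43.2 to 60.2) in replicate 1, and ranked 232. Mir196a-2 had 11 counts in replicate 2 and 12 in replicate 1, or 3.13 CPM (1.56 to 5.60) in replicate 2 and 4.21 CPM (2.17 to 7.35) in replicate 1. Mir196a-1 had 2 counts in replicate 2 and 1 in replicate 1, or 0.569 CPM (0.0689 to 2.05) in replicate 2 and 0.350 CPM (0.00887 to 1.95) in replicate 1. At that depth the presence of Mir196a-1 reads rests on single counts. Mir196b was the one miR-196 gene whose main arm is not duplicated elsewhere, and its lead over the Mir196a genes cannot be told apart from the loss of shared reads. The miR-10 pair had 6.26 times the summed CPM of the 3 miR-196 genes in replicate 2 and 5.47 times in replicate 1, with the miR-196 sum a lower limit for the same reason.

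Mir615, hosted by Hoxc5, was below Mir196b and above the Mir196a genes. It had 87 counts in replicate 2 and 51 in replicate 1, or 24.7 CPM (19.8 to 30.5) in replicate 2 and 17.9 CPM (13.3 to 23.5) in replicate 1, and ranked 287. Ordered by mean CPM (± SD, n = 2), the genes were Mir10a (251 ± 135), Mir10b (164 ± 20.7), Mir196b (65.7 ± 20.5), Mir615 (21.3 ± 4.85), Mir196a-2 (3.67 ± 0.762) and Mir196a-1 (0.460 ± 0.154). Of the 5 neighbouring pairs in that order 4 were apart, meaning that the lower library of the higher gene exceeded the higher library of the lower gene. The exception was Mir10a against Mir10b. The order held in each library by itself, and it is an order of reads, because small RNA libraries favour some sequences and a count sums both arms of a hairpin.

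**Figure D2:**
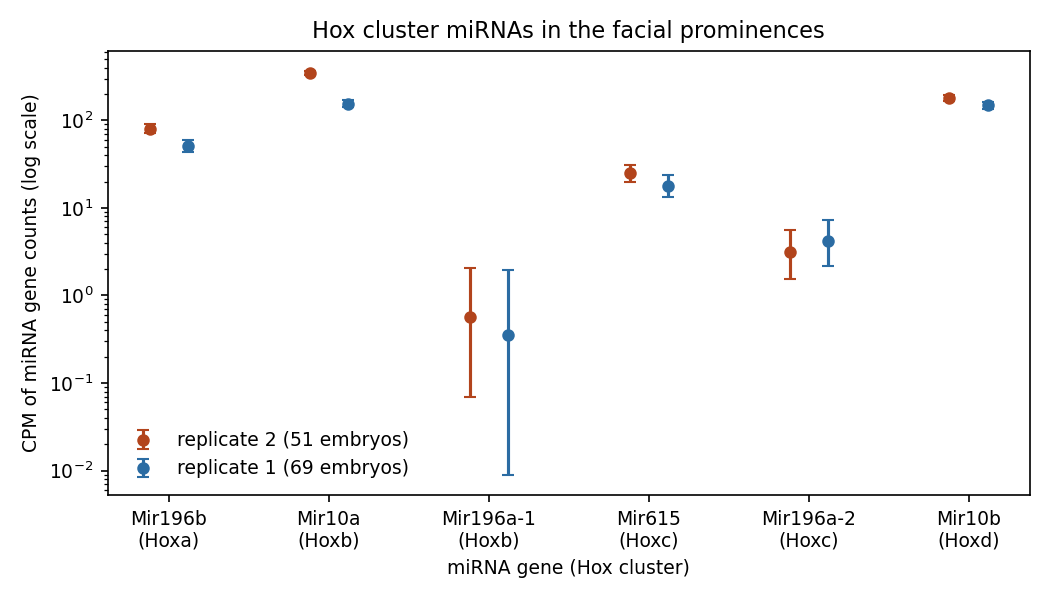
Level of each hairpin in CPM on a log axis, with replicate 2 (51 embryos, red) left of replicate 1 (69 embryos, blue) and bars for the exact Poisson 95% interval of the count. The intervals of Mir10a, Mir10b and Mir196b do not overlap between the pools, and those of Mir196a-1, with 2 counts in replicate 2 and 1 in replicate 1, span more than an order of magnitude.

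**Figure D3:**
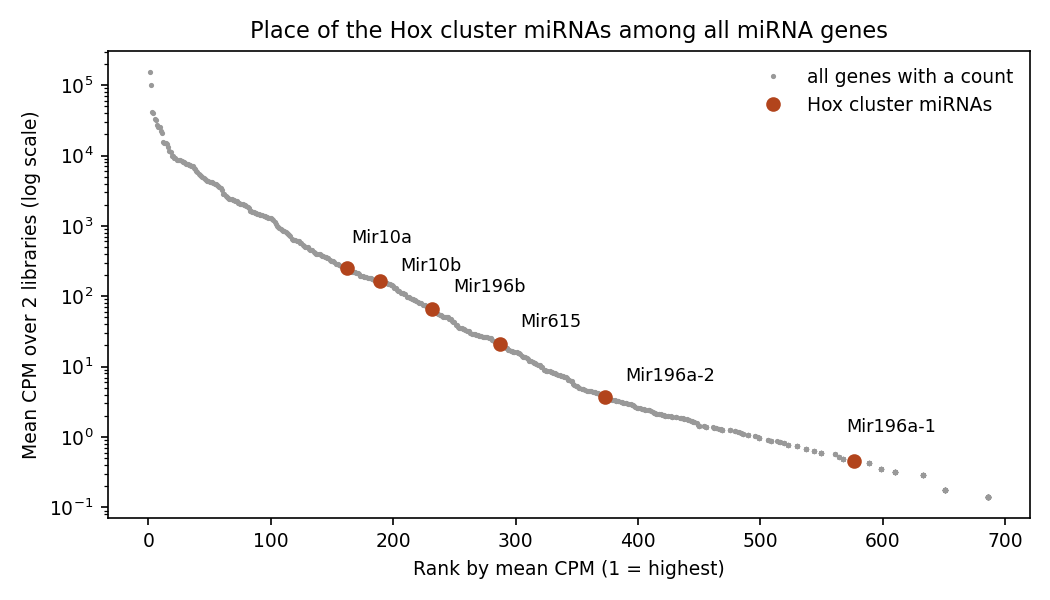
Mean CPM (log axis) against rank for every miRNA gene with a count, with the Hox cluster hairpins in red. They run from rank 162 (Mir10a) down to rank 577 (Mir196a-1).

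By cluster, the Hoxb hairpins together had 347 CPM in replicate 2 and 156 CPM in replicate 1, nearly all from Mir10a. Hoxd (Mir10b) and Hoxa (Mir196b) followed with the values above, and the Hoxc hairpins were lowest with 27.9 CPM in replicate 2 and 22.1 CPM in replicate 1. Hairpins within or next to Hox4 and Hox5 genes (Mir10a, Mir10b and Mir615) together had 549.6 CPM in replicate 2 and 322 CPM in replicate 1, while the more posterior miR-196 hairpins (Mir196b, Mir196a-1 and Mir196a-2) had 83.9 CPM in replicate 2 and 55.7 CPM in replicate 1. Along each cluster that holds more than 1 hairpin, the anterior one was higher in both libraries, Mir10a over Mir196a-1 in Hoxb and Mir615 over Mir196a-2 in Hoxc. Both posterior genes in these pairs are the ones with a shared mature arm.

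Mir10a had the largest ratio between the pools among the tested members. Its ratio of replicate 2 over replicate 1 was 2.23 (exact 95% interval 2.00 to 2.49), a log2 ratio of 1.15 with a pseudocount of 0.5 CPM. Mir196b was 1.57-fold higher in replicate 2 (1.28 to 1.93) and Mir10b 1.20-fold (1.06 to 1.36). These 3 genes passed the exact two-sided binomial test with Benjamini-Hochberg adjustment over the 449 genes with at least 10 counts in all (adjusted p = 5.23e-51 for Mir10a, 2.87e-05 for Mir196b and 0.0129 for Mir10b). Of those 449 genes 40.3% passed in either direction and 20% as higher in replicate 2 (20.3% as lower), so passing is common, and the test compares the pools beyond counting error and not conditions. Of the 320 genes averaging 10 CPM or more, 26.9% passed as higher in replicate 2.

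The remaining members did not pass. Mir615 had a ratio of 1.38 (0.969 to 2.00, adjusted p = 0.159) and Mir196a-2 a ratio of 0.744 (0.297 to 1.84, adjusted p = 0.695) in the same exact binomial test, and both intervals include 1. Mir196a-1, with 3 counts in all, was not tested, and its ratio of 1.62 had an interval of 0.0845 to 95.7. In all, 5 of the 6 members had enough counts for the test, 4 of these 5 had a ratio above 1, and their median log2 ratio was 0.46, beside a median of 0.01 over all 449 genes, of which 51.2% had a ratio above 1.

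In size, Mir10a stood apart from the other members. By log2 ratio it ranked 3 among the same 320 genes, ordered from the most raised in replicate 2. Mir196b ranked 13, Mir615 ranked 28 and Mir10b ranked 63. The median absolute log2 ratio of these genes was 0.18, so Mir10b (0.26) lay near the usual difference between the pools. Passing the test with at least a 2-fold ratio and a higher level in replicate 2 occurred in 1.34% of the tested genes, and Mir10a was the 1 member to do so. It accounted for 74.8% of the difference in summed CPM between the pools, and its share of the members' counts was 54.7% in replicate 2 and 41.1% in replicate 1.

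**Figure D4:**
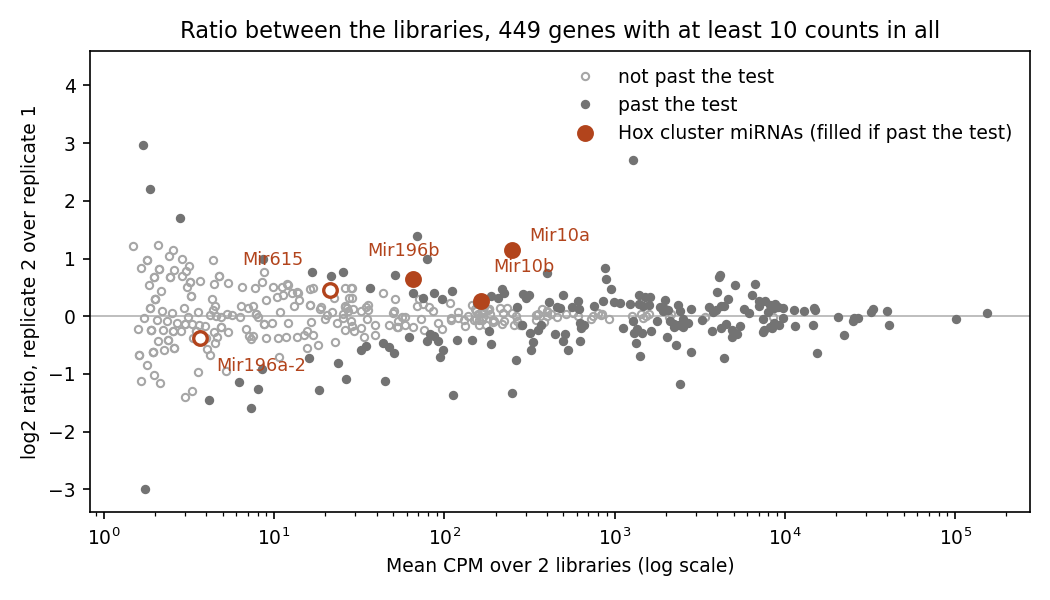
Ratio between the libraries (log2, replicate 2 over replicate 1) against mean CPM (log axis) for the 449 genes with at least 10 counts in all, with filled points past the exact binomial test and Hox cluster hairpins in red. Mir10a lies at 1.15, Mir196b at 0.64, Mir615 at 0.46, Mir10b at 0.26 and Mir196a-2 at -0.38.

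Other cell types in the pools were followed through miRNA markers. Reads that map to several places are in no gene count. Markers with numbered copies, such as the Mir9, Mir124a, Mir128, Mir219a and Mir133a genes, may therefore be undercounted, as the Mir196a genes are. Their low counts are not levels of the mature miRNA. Surface epithelium (7 of 7 markers detected) had 23965 CPM in replicate 2 and 28691 CPM in replicate 1, and mesenchyme with neural crest (7 of 7) had 27041 CPM in replicate 2 and 30706 CPM in replicate 1, so markers of the labelled tissue were present in both pools. In the exact binomial test 6 of the 7 epithelial and 4 of the 7 mesenchymal markers passed as lower in replicate 2, and none as higher. Over all 449 tested genes 20.3% passed as lower and 20% as higher. Small ratios pass at high counts, and the median log2 ratio was -0.27 for the epithelial and -0.20 for the mesenchymal markers. The median absolute log2 ratio of genes averaging 10 CPM or more was 0.18. The neural list (11 of 12 in the tables) had 3847 CPM in replicate 2 and 1825 CPM in replicate 1, led by Mir219a-2 with 2217 CPM in replicate 2 and 339 CPM in replicate 1. Of 9 neural genes tested 4 passed as higher and 2 as lower in replicate 2, and 2 of the 11 were at 0 in replicate 1. Besides Mir219a-2, the higher genes were Mir219a-1 and, at low counts, Mir124a-2 and Mir124a-3. Mir124a-2 had 16 counts in replicate 2 and 3 in replicate 1, and Mir124a-3 had 12 and 0. The lower genes were Mir137, with 593 CPM in replicate 2 and 680 CPM in replicate 1, and Mir9-3, with 28.4 CPM and 41.0 CPM. The erythroid sum was 205 CPM in replicate 2 and 419.8 CPM in replicate 1, and 1 of its 3 genes passed, Mir451a, with 143 CPM in replicate 2 and 359 CPM in replicate 1. Mir144 had 37.0 CPM in replicate 2 and 41.4 CPM in replicate 1, and Mir486 had 25.0 CPM in replicate 2 and 19.98 CPM in replicate 1. By comparison, the leukocyte list had 453 CPM in replicate 2 and 461 CPM in replicate 1. Endothelial Mir126a had 34369 CPM in replicate 2 and 31642 CPM in replicate 1, and passed as higher at a log2 ratio of 0.12. Counted reads of muscle markers were low, with 131 CPM in replicate 2 and 80.6 CPM in replicate 1 over 8 of 9 genes. Both Mir133a genes were at 0 in both libraries, which does not show absence, because reads that fit both were not counted. Of 4 muscle genes tested 1 passed as higher in replicate 2, Mir208b, with 100.4 CPM in replicate 2 and 38.2 CPM in replicate 1. Another 1 passed as lower, Mir206, with 10.5 CPM in replicate 2 and 26.3 CPM in replicate 1. Mir144, Mir486, Mir206, Mir219a-1, Mir124a-2, Mir124a-3, Mir137 and Mir9-3 are named after their values were seen. The neural and muscle sums were higher in replicate 2, and the epithelial, mesenchymal and erythroid sums were lower. Endothelial Mir126a was also higher, but its log2 ratio of 0.12 was below the median absolute log2 ratio of 0.18. Single genes, Mir219a-2, Mir208b and Mir451a, carried most or all of the neural, muscle and erythroid differences. The part of these cell types in the Hox cluster miRNA levels was not tested.

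The relatives of miR-10 outside the Hox clusters were far higher than the pair inside them. Mir99a, Mir99b, Mir100, Mir125a, Mir125b-1 and Mir125b-2 together had 79199 CPM in replicate 2 and 84751 CPM in replicate 1, which is 151 times the miR-10 pair in replicate 2 and 278 times in replicate 1. The highest was Mir99a, with 38635 CPM in replicate 2 and 43118 CPM in replicate 1, and the lowest Mir125b-2, with 425 CPM in replicate 2 and 416 CPM in replicate 1, above Mir10a in both libraries. Mir125b-1 and Mir125b-2 encode the same miR-125b-5p, so their levels and the sum of the relatives are lower limits, as for the Mir196a genes. Of these 6 relatives 1 passed the exact binomial test as higher in replicate 2 and 4 as lower, with a median log2 ratio of -0.10. Over all 449 tested genes 20% passed as higher and 20.3% as lower. Small ratios pass at such high counts, and the median absolute log2 ratio of genes averaging 10 CPM or more was 0.18.

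The genes closest in level over both libraries, by Euclidean distance in log2(CPM + 0.5), were Mir293 for Mir10a (distance 0.503), Mir3102 for Mir10b (0.0915), Mir292 for Mir196b (0.175), Mir486 for Mir615 (0.157) and Mir6958 for Mir196a-2 (0.112). Mir293 and Mir292 belong to a cluster known from early embryonic cells. Mir293, at 254 CPM in replicate 2 and 182 CPM in replicate 1, was still far from matching Mir10a. With 2 libraries such a distance reflects little more than a similar mean level.

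Sequence links these miRNAs back to Hox mRNAs, which were not measured here. miR-196a is known in the mouse for directing cleavage of Hoxb8 mRNA, and the stretch of the Hoxb8 3′ UTR most complementary to it was located (chromosome 11, plus strand, written as chr11:96284888-96284909 on GRCm38). The site is printed 5′ to 3′, with capitals for bases in Watson-Crick pairing with miR-196a-5p and lower case for the base that faces it in a G:U pair.
Hoxb8 site: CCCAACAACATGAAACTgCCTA
It paired at 21 of 22 bases without a gap. Among 20846 mouse 3′ UTRs (1 per coding gene, the longest annotated), no other reached 21, and the median of the best match was 13.

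Perfect seed matches were also counted in Hox 3′ UTRs, on the mRNA strand only. The match to the miR-196 seed, ACTACCT, was present in 9 of 39 Hox 3′ UTRs (23.1%) and in 6.15% of all 20846, with median UTR lengths of 966 bases for the Hox genes and 975 bases for all. In the first 500 bases of UTRs at least that long, the shares were 23.5% of 34 Hox genes and 1.98% of 14301 genes. All 10 let-7 5p sequences share a stretch of 6 bases with the first 8 bases of miR-196a-5p. These matches therefore also fit part of the let-7 sequence and are not particular to miR-196. The match to the miR-10 seed, ACAGGGT, was in 4 of 39 (10.3%) and in 12.6% of all. The match to the miR-615-3p seed, GGCTCGG, was in Hoxb4 alone (2.56%), and in 2.32% of all. The Hoxb8 site above is not a perfect match to the miR-196 seed, because the G:U pair lies in that stretch. These are letter matches in a sequence and not measured sites.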

How the data were processed

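Small RNA reads from 2 libraries of 1 group were analysed. The deposited tables, made by the authors, hold raw read counts per miRNA gene on mm10 with GENCODE M4 annotation, per the text files beside them; the aligner is not named in any source used here. The gene-strand count (column 3 of the tables) was used, without the 4 summary lines, which held 59.3% of reads in replicate 2 and 58.2% in replicate 1. Gene totals were 3517226 counts (replicate 2) and 2853511 (replicate 1). Reads mapping to several places (25.9% of reads in replicate 2 and 27.6% in replicate 1) are in no gene count.

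CPM used the gene totals. Symbols and coordinates came from GENCODE M21 by identifier without version (1894 of 1973 matched), so a hairpin's bounds may differ from those counted. Libraries were compared by an exact binomial test per gene (scipy 1.17.1) with a threshold of 0.05. It was tried on counts simulated with counting noise only, where 1.23% of unchanged genes were called. That simulation does not cover other differences between pools. TMM (edgeR 4.0.16) and DESeq2 1.42.0 size factors were alternatives. The labels call the libraries biological replicates. Named genes were the members, their relatives, the nearest gene in level of each detected member, and marker lists with their leading genes. Members and lists were chosen with earlier results of these data known.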

Additional observations from a re-analysis of the deposited data

How the results depend on the processing

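The 3 calls between the libraries (Mir10a, Mir196b and Mir10b) and the direction of all 6 ratios held under the 9 alternatives tried: the unstranded count, TMM or DESeq2 library sizes, all reads or a total without the 10 highest genes as the library size, pseudocounts of 0.1 or 1 CPM, and no filter or 10 counts in each library. The adjusted p of Mir10b in the exact binomial test reached 0.0405, the closest to the threshold of 0.05. The summed level depends on what it is scaled to: 208 CPM when scaled to all reads and 1013 CPM without the 10 highest genes in the total. It was 378 CPM to 633 CPM with either library left out, and 502 CPM without Mir196a-1 and Mir196a-2, an alternative chosen after seeing the data. Depth limits Mir196a-1, which had 3 counts in all and was not tested. No paired analysis was possible because the series has a single group.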
